A study of Mus musculus with 45 samples.

Results

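YEJH-M3 is a mouse mammary tumour cell line recovered from the lung, and it was compared with the 4 other lung lines of the same parent, YEJH-M1, YEJH-M2, YEJH-M4 and YEJH-M5. The members were taken from the cell line labels, which gave 3 libraries of YEJH-M3 and 12 libraries of the other lung lines, 15 of the 45 libraries in the series. GEO labels YEJH-M3 as lung metastases and the other 4 lines as whole lung, and no other line of the series carries the former label. All 15 libraries came from PyMT+ cells, which express polyomavirus middle T antigen under the MMTV promoter, grown for 24 h in plastic dishes with no treatment. The lung lines were derived from micrometastases that formed after a fat-pad tumour had been resected, so they share their parental cells. The study treats the lines as independent and from separate mice, and each was sampled in 3 technical repeats, while clonality and the animals' ages are not given in the sources used here. The label and the line cannot be told apart, since YEJH-M3 is the only line that carries its label. P-values therefore measure the spread between these libraries and lines and not between metastases, and an exact permutation over lines, 1 against 4, could not go below p = 0.2.

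Middle T antigen drives growth of the mammary epithelium by binding cellular kinases and signalling adaptors, and in the FVB/N strain the tumours spread readily to the lung. Cells that settle there meet other growth factors, lipid mediators and matrix than in the mammary gland. Lines taken from separate lung deposits of 1 parental culture can each keep a profile of their own in the dish, which the present comparison describes for YEJH-M3.

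The libraries held 9723860 to 16922450 reads assigned to genes, and those of YEJH-M3 held 12814802, 13226858 and 15842786. They had been sequenced in 2 library runs, named here A and B after the prefix of the library names, and the first principal component, with 49.8% of the variance, separated the runs. YEJH-M3 repeats 1 and 2 were in run B and repeat 3 was in run A, and run was a term in every fit unless stated. YEJH-M3 repeat 2 stood apart from all the others. In it 13.3% of reads fell outside genes against 5.51% to 7.99% in the other 14 libraries, and 15.2% of its reads did not align. A gene without a symbol in the annotation used, ENSMUSG00000097971, took 7.96% of its gene reads against 1.49% to 2.43% elsewhere. Against the 6 non-YEJH-M3 libraries of its run, 1011 genes (7.43%) of repeat 2 were more than 2-fold away, compared with 258 in repeat 1 and 189 in repeat 3. Results are therefore given with and without repeat 2, and a call was said to hold where it was made in both fits with the same sign.

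Of 13599 genes with enough reads for testing, 20 differed between YEJH-M3 and the other lung lines at an adjusted p below 0.05 (edgeR quasi-likelihood test, Benjamini-Hochberg adjustment), which is 0.147% of the genes tested. Among these, 12 were higher in YEJH-M3 (0.0882%) and 8 were lower (0.0588%). Without repeat 2, 6 of 13792 genes were called (0.0435%), and these were 6 of the 20, all higher in YEJH-M3 (0.0441%). They were Igfbp4, Ptges, the long non-coding RNA Ptprjos1, Ogfrl1, Cndp2 and Esyt1. In limma with a correlation within lines, which treats the repeats of a line as related, Igfbp4, Ptges and Ogfrl1 held, and Ptprjos1, Cndp2 and Esyt1 were called with all libraries but not without repeat 2 (limma adjusted p = 0.0705, 0.133 and 0.0665). Without repeat 2 edgeR called no gene lower, although 344 had a negative difference at an unadjusted edgeR p below 0.05. DESeq2 called 17 lower without repeat 2 and limma 0. With the repeat number added as a block, 9 genes were called, all among the 20, namely these 6, Sh3bp5 and Amot higher and Ifitm3 lower. With counts summed per line, in a fit with no run term, none of the 20 was called by edgeR. There the spread is that between the 4 other lines, whose repeats are divided unequally between the runs. Of 16294 genes in that fit, 5 were called (1039 at an unadjusted p below 0.05). Without YEJH-M3 repeat 1, which leaves repeats 2 and 3, 464 genes were called, and 260 were called with YEJH-M5 left out. In the 15 libraries, 96 genes (0.706%) had their 3 YEJH-M3 libraries above all 12 others and 59 (0.434%) had them below. Ogfrl1, Cndp2 and Esyt1 met the rule set for naming genes, and the other genes given here were named after their values had been seen.

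**Figure D1:**
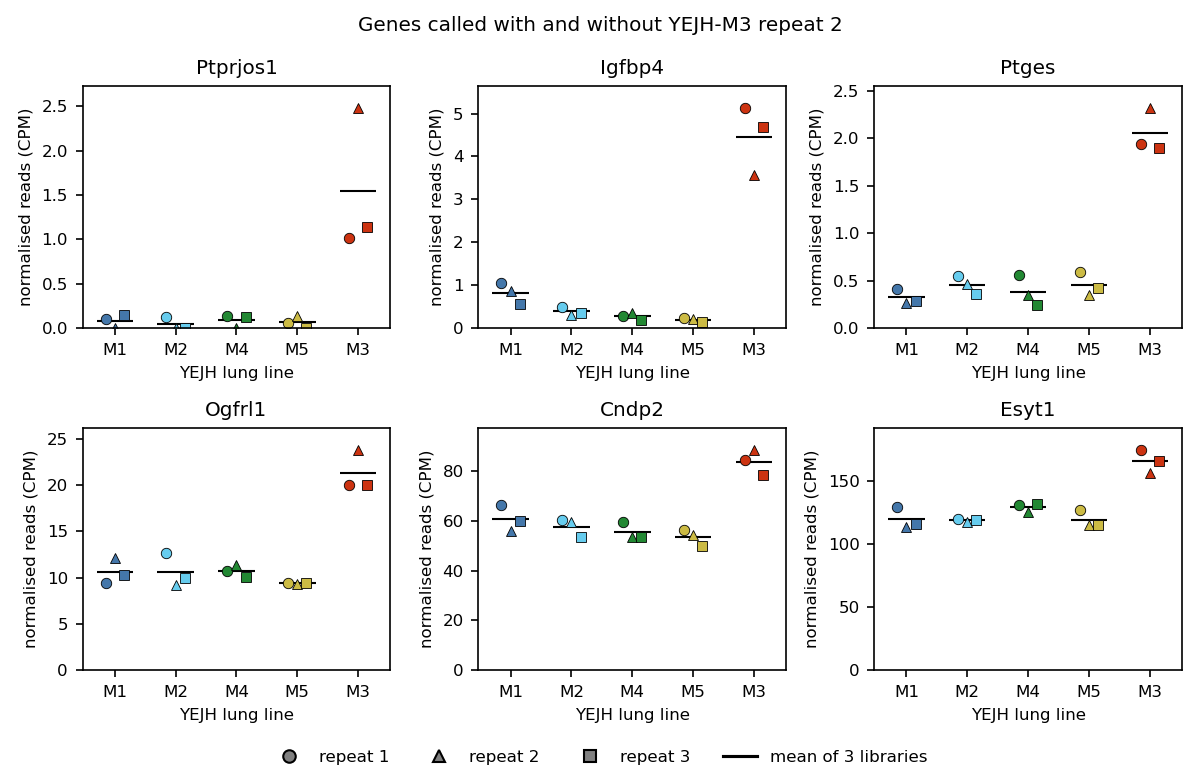
Normalised read counts (CPM with TMM scaling, linear axis from 0) of the 6 genes called with and without YEJH-M3 repeat 2, for each of the 15 libraries, with the line's mean as a bar and the repeat number as the marker. In every panel the 3 YEJH-M3 libraries lie above the 12 others.

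The protein-coding genes that held lie on 5 chromosomes in GRCm39. Igfbp4 is at chr11:98932064-98945218 (+), Ptges at chr2:30779483-30820196 (-), Ogfrl1 at chr1:23403467-23436853 (-), Cndp2 at chr18:84685590-84704146 (-) and Esyt1 at chr10:128345834-128361870 (-). The counts are over whole genes.

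Igfbp4 encodes a secreted protein that binds insulin-like growth factors. Its normalised read count, given throughout as CPM, the counts scaled to a common library size, was 5.13, 3.56 and 4.69 in YEJH-M3 repeats 1, 2 and 3. In the 12 other libraries it ran from 0.14 through a median of 0.327 to 1.04, so the groups did not overlap. These values rest on few reads, 43 to 74 per YEJH-M3 library and 2 to 13 in the others. The log2 difference was 3.42 ± 0.34 (SE, n = 3 and 12 libraries), with an adjusted p of 0.000118 in edgeR's quasi-likelihood test, and it was 3.57 without repeat 2 (adjusted p = 0.00126 in edgeR). Among the other lines YEJH-M1 had the highest mean, 0.826 CPM, and YEJH-M5 the lowest, 0.194 CPM.

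Ptges encodes the membrane-bound prostaglandin E synthase, which makes the terminal step to prostaglandin E2. It measured 1.94, 2.32 and 1.90 CPM in the 3 YEJH-M3 repeats. The other libraries ran from 0.247 to 0.593 CPM with a median of 0.388, and the 4 line means lay within 0.323 to 0.459 CPM. The log2 difference was 2.33 ± 0.23 (SE), and 2.22 without repeat 2 (edgeR adjusted p = 0.00217). Ltc4s, which encodes the synthase of leukotriene C4, another lipid made from arachidonic acid, was among the 8 genes called lower. It measured 0.855, 1.08 and 0.571 CPM in YEJH-M3 and 1.47 to 2.70 CPM in the others, and its call was lost without repeat 2 (log2 difference of -1.38, edgeR adjusted p = 0.0986).

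Igfbp4 and Ptges had the largest differences among the protein-coding genes that held, and their promoters are shown for that reason. RefSeq promoter entries were found for 3 of the 6 genes. The 250 bases before the RefSeq start are given 5′ to 3′ on the gene's strand, from build GRCm38.p6, with capitals for matches to any of the motifs searched, on either strand. These were the TATA box as TATAAA, the CAAT box as CCAAT, the GC box as GGGCGG and the AP-1 motif as TGANTCA, and no match overlapped another. Igfbp4 lies at chr11:99040994-99041243 on the forward strand and Ptges at chr2:30903298-30903547 on the reverse strand.
Igfbp4: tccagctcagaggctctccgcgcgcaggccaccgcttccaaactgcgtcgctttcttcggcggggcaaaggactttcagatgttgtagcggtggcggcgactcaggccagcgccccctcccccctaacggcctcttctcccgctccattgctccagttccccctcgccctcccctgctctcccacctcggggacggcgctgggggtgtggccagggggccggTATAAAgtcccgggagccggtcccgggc
Ptges: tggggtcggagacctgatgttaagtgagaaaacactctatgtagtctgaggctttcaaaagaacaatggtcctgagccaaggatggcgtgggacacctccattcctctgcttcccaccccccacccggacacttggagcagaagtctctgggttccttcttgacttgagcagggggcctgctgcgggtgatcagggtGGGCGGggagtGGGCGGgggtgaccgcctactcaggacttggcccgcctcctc
The Igfbp4 window held 1 TATAAA, starting 28 bases before the start, and none of the other motifs. The Ptges window held 2 copies of GGGCGG, starting 53 and 42 bases before the start, and none of the others. Of 32851 promoter entries, 12.4% held the TATA box in this window, 32.7% the GC box, 33.8% the CAAT box and 6.75% the AP-1 motif. G and C made up 69.2% of the Igfbp4 window and 59.6% of the Ptges window, against a median of 52.4% over all entries. These matches describe the letters and were not tied to the difference between lines.

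Ptprjos1 is a long non-coding RNA gene on the forward strand of chromosome 2 (GRCm39 90309571 to 90318772), inside the span of Ptprj on the reverse strand, a receptor-type tyrosine phosphatase gene. It measured 1.01, 2.48 and 1.14 CPM in YEJH-M3, with repeat 2 the highest, and 0 to 0.142 CPM in the others. The read counts behind this were 13 to 30 in YEJH-M3 and 0 to 2 elsewhere. The log2 difference was 4.22 ± 0.49 (SE, edgeR adjusted p = 0.000728) and 3.82 without repeat 2 (edgeR adjusted p = 0.0165). The library kit does not mark strand, so reads of Ptprjos1 and of Ptprj introns cannot be told apart. Ptprj itself measured 91.5, 118 and 82.3 CPM in YEJH-M3 and 58.6 to 86.5 CPM in the other libraries. The groups overlapped, and its log2 difference of 0.37 was not called (edgeR adjusted p = 0.233).

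Ogfrl1, Cndp2 and Esyt1 were the more abundantly counted genes that held, with smaller differences. Ogfrl1, an opioid growth factor receptor-like gene, measured 20, 23.8 and 20 CPM in YEJH-M3 repeats 1, 2 and 3 against 9.25 to 12.7 CPM in the others, with a median of 9.99. Its log2 difference was 1.02 ± 0.10 (SE, edgeR adjusted p = 0.000118) and 0.95 without repeat 2 (edgeR adjusted p = 0.00217). The 4 other line means lay between 9.41 and 10.7 CPM, so YEJH-M3 stood at 2.03 times their level while the 4 lines differed little among themselves.

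Cndp2, a cytosolic dipeptidase that cleaves dipeptides such as cysteinylglycine, measured 84.5, 88.4 and 78.4 CPM in YEJH-M3. The other libraries ran from 49.8 to 66.4 CPM, below all 3. The log2 difference was 0.55 ± 0.07 (SE), with an edgeR adjusted p of 0.00216, and 0.52 without repeat 2 (edgeR adjusted p = 0.0303). Esyt1, an extended synaptotagmin that tethers the endoplasmic reticulum to the plasma membrane and moves lipids between them, measured 175, 157 and 166 CPM in YEJH-M3. The others ran from 114 to 132 CPM and did not overlap with it. Its log2 difference of 0.44 ± 0.06 (SE) corresponds to 1.36-fold, with an edgeR adjusted p of 0.00216, and it was 0.48 without repeat 2 (edgeR adjusted p = 0.00692). Repeat 2 was the lowest of the 3 YEJH-M3 libraries for Esyt1 and Igfbp4 and the highest for the other 4 genes.

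Within each run all 20 called genes kept their sign. This follows from the lack of overlap, since in each gene all YEJH-M3 libraries lay above or all below the others. In run A alone, with 1 YEJH-M3 library against 6, edgeR called 0 genes (534 at an unadjusted p below 0.05), and DESeq2 called 5. In run B alone, with 2 against 6, edgeR called 1, Amot, and DESeq2 110. The log2 differences of Igfbp4 were 3.61 in run A and 3.29 in run B, those of Ptges 2.12 and 2.46, and those of Ptprjos1 4.17 and 4.25. For Ogfrl1 they were 0.98 and 1.04, for Cndp2 0.48 and 0.59, and for Esyt1 0.46 and 0.42.

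The other 14 of the 20 calls were lost without repeat 2, 6 of them higher and 8 lower in YEJH-M3. The 6 were Megf6 and Epb41l4a, with EGF-like repeats and a FERM domain, Hhip, which binds and inhibits hedgehog ligands, Sh3bp5, an exchange factor for Rab11, Amot, a scaffold that binds YAP in the Hippo pathway, and Morc4. Their log2 differences ran from 0.31 for Morc4 to 1.86 for Megf6 with all libraries and from 0.22 to 1.85 without repeat 2, so the loss of the call did not go with a change of sign.

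Amot came nearest to holding. It measured 29.7, 35 and 25.3 CPM in YEJH-M3 and 12.9 to 19.9 CPM elsewhere, with no overlap. Its log2 difference was 0.88 ± 0.12 (SE, edgeR adjusted p = 0.0023) and 0.75 without repeat 2 (edgeR adjusted p = 0.0506). Megf6 measured 51.6, 49.2 and 41.9 CPM in YEJH-M3 and 4.99 to 25.3 CPM elsewhere. Its 4 other lines were spread widely, with means from 7.52 in YEJH-M2 to 22.2 CPM in YEJH-M4. Sh3bp5 measured 15.9, 18.6 and 20.2 CPM in YEJH-M3, above the 7.25 to 12.1 CPM of the others (edgeR adjusted p = 0.0062, and 0.0619 without repeat 2). Hhip was 10.8 CPM in repeat 2 and 5.52 and 6.85 CPM in the other YEJH-M3 repeats, and its log2 difference moved from 1.57 to 1.23 when repeat 2 was left out.

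The 8 genes called lower were Ifitm3, Aldh2, Chchd5, Csta1, Vamp5, Trim44, Mal and Ltc4s. Ifitm3, an interferon-induced membrane protein that limits virus entry, measured 98.4, 76.9 and 87.9 CPM in YEJH-M3 and 125 to 177 CPM in the others. Its log2 difference was -0.76 ± 0.11 (SE, edgeR adjusted p = 0.00408), and -0.66 without repeat 2 (edgeR adjusted p = 0.0619). Aldh2, the mitochondrial aldehyde dehydrogenase, measured 148, 122 and 148 CPM against 162 to 232 CPM. Mal, a membrane protein of apical transport, measured 131, 123 and 148 CPM against 166 to 251 CPM.

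Csta1, which encodes a stefin A cysteine protease inhibitor, had the largest fall, with a log2 difference of -1.91 ± 0.33 (SE, edgeR adjusted p = 0.0351). It was counted at 0.155 to 0.414 CPM in YEJH-M3 and 0.618 to 1.54 CPM elsewhere. Vamp5, a vesicle SNARE protein, measured 6.03 to 7.23 CPM against 9.31 to 15.1 CPM, Chchd5, a small mitochondrial protein, 7.62 to 7.94 CPM against 10.3 to 14.1 CPM, and Trim44 52.5 to 60.6 CPM against 65.9 to 82.4 CPM. In each of the 8 genes the YEJH-M3 libraries lay below all 12 others, and without repeat 2 their edgeR adjusted p ran from 0.0619 to 0.404.

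**Figure D2:**
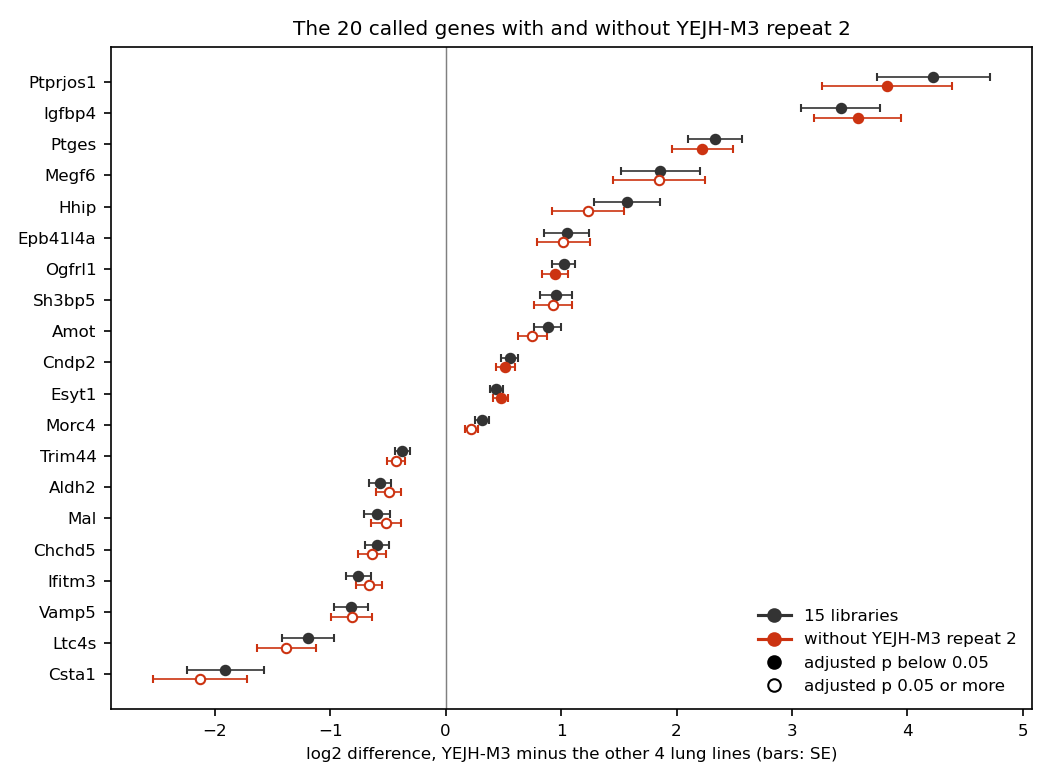
Log2 difference between YEJH-M3 and the other 4 lung lines for the 20 called genes, from 15 libraries (black) and without YEJH-M3 repeat 2 (red), with bars for the SE and filled points for an adjusted p below 0.05. All 20 genes keep their sign, as follows from libraries that do not overlap, and the 6 filled in both colours are the genes that held.

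YEJH-M3 was then set against each line in turn, with 1 coefficient per line, which compares technical repeats and takes the lines as fixed. Against YEJH-M1 1944 genes were called (14.3%), against YEJH-M2 1014 (7.46%), against YEJH-M4 495 (3.64%) and against YEJH-M5 523 (3.85%). Without repeat 2 the counts were 1841, 1096, 565 and 613. The 4 contrasts share the YEJH-M3 libraries. In the 15 libraries 27 genes differed in the same direction from all 4 lines, 18 higher (0.132%) and 9 lower (0.0662%), and 25 of these did so without repeat 2 as well, all but Porcn and Vamp5. Of the 27, 18 were also among the 20 calls above, and Ltc4s and Morc4 were the 2 calls that did not differ from every line.

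The genes that were higher than each line but not among the 20 calls were B4galt6, Lcp1, Prom1, Crispld2, Tspan12, Tnik and Akap12. Their 4 other line means were spread over a wide range. B4galt6, which makes lactosylceramide, measured 3.19, 8.28 and 4.31 CPM in YEJH-M3, and its line means ran from 0.224 in YEJH-M2 to 1.57 CPM in YEJH-M4. Prom1, the CD133 antigen found on progenitor-like epithelial cells, measured 4.90, 4.22 and 4.5 CPM in YEJH-M3 and 0.66 to 2.27 CPM in the line means. Its log2 difference was 0.97 against YEJH-M5 and 2.71 against YEJH-M2, and 1.49 against the 4 lines in 1 contrast (edgeR adjusted p = 0.124).

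Lcp1 encodes the actin-bundling protein L-plastin, which is abundant in leukocytes. It measured 7.77, 7.20 and 6.53 CPM in YEJH-M3, with 4.48 CPM in YEJH-M4 and 0.957 CPM in YEJH-M5. The leukocyte markers summed to 5.97 to 7.95 CPM in YEJH-M3 and 7.09 to 10.8 CPM in the others, mostly from Csf1r, S100a8 and Cd68. Whether leukocytes had a part in the Lcp1 difference was not tested. Crispld2 ran from 1.15 CPM in YEJH-M2 to 9.75 CPM in YEJH-M1, with 14.6 ± 1.40 CPM (SD, n = 3) in YEJH-M3. Tspan12, a Norrin and Frizzled co-receptor, Tnik, a kinase of the Wnt pathway, and Akap12, a scaffold of protein kinase A, had log2 differences against single lines from 0.35 to 2.24. Among the 9 lower genes Porcn, the acyltransferase that Wnt proteins need for secretion, and Golm2 were not among the 20 calls. Porcn measured 12, 9.43 and 9.51 CPM in YEJH-M3 and 13.6 to 20.2 CPM elsewhere, and its difference from YEJH-M4 was not called without repeat 2 (edgeR adjusted p = 0.075).

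**Figure D3:**
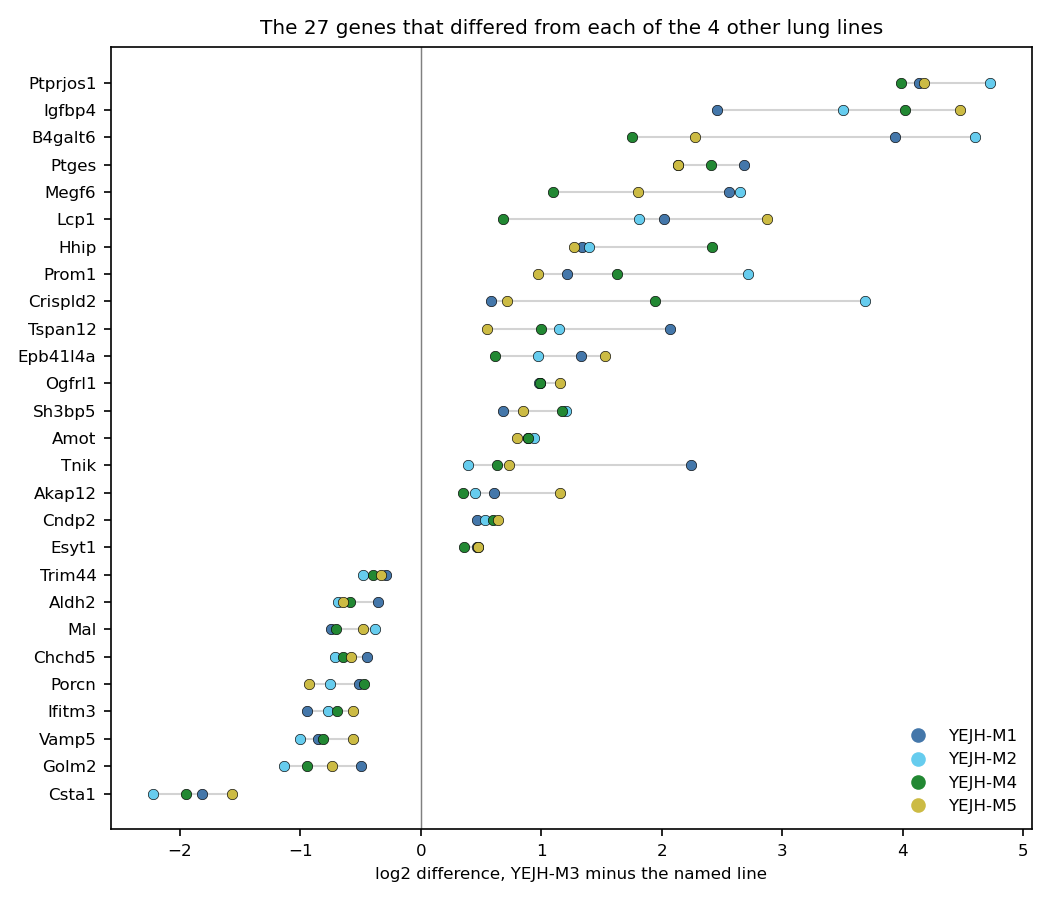
Log2 difference between YEJH-M3 and each of YEJH-M1, YEJH-M2, YEJH-M4 and YEJH-M5 for the 27 genes that differed from all 4 lines in the same direction, 1 point per line. The 4 points of Ogfrl1, Amot, Cndp2 and Esyt1 lie close together, while those of Igfbp4, B4galt6, Lcp1 and Crispld2 are spread widely.

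Without repeat 2 the number of genes that differed from each line was 34, 20 higher and 14 lower. Those that came in were Tmem82 and Foxj1 among the higher genes and Ltc4s, C3, Itpr2, Myh10, Rnu12, Gm25541 and ENSMUSG00000065336 among the lower. Tmem82 measured 1.40, 1.32 and 1.52 CPM in YEJH-M3 and 0 to 0.593 CPM elsewhere. C3, the central complement component, measured 72.6 and 73.1 CPM in YEJH-M3 repeats 1 and 3, 94.3 CPM in repeat 2, and 89.6 to 154 CPM in the other lines. Myh10, non-muscle myosin heavy chain IIB, measured 12, 13.2 and 8.63 CPM in YEJH-M3, close to the 15 CPM mean of YEJH-M4 and far below the 106 CPM of YEJH-M1.

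The same genes were read in the other lines of the series as a description with no test and with all 45 libraries scaled together. Of the 18 genes higher than each lung line, 16 had a higher mean in YEJH-M3 than in any of the 5 YEJH fat-pad lines, and 15 than in any of the 14 other lines. All 9 lower genes lay below the 5 fat-pad lines, and 4 of them, Ifitm3, Vamp5, Chchd5 and Csta1, below all 14 lines. The genes had been chosen because YEJH-M3 was highest or lowest among the lung lines, which are among the 14. These counts are therefore no independent result, and the share over all genes was not counted. Ptprjos1 reached 1.56 CPM in YEJH-M3 and at most 0.223 CPM elsewhere. Ptges reached 2.07 CPM, against 1.19 CPM in both YEJG lung lines, which came from another parent, and at most 0.464 CPM in the YEJH lines.

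Igfbp4 was not highest in YEJH-M3. The YEJG lung lines YEJG-M1 and YEJG-M2 had 7.71 and 6.62 CPM against 4.5 CPM in YEJH-M3, with 1 YEJG-M1 library whose name and label disagree, while the YEJG fat-pad line had 0.639 CPM and the parental YEJG line had 0 CPM. Ogfrl1 in YEJH-M3, 21.4 CPM, was close to the 21.1, 20.1 and 19.9 CPM of the fat-pad lines YEJH-FP1, YEJH-FP2 and YEJH-FP3 and above the 13.6 and 13.4 CPM of YEJH-FP4 and YEJH-FP5. Crispld2 and Epb41l4a lay within the range of the fat-pad lines. Esyt1 was 167 CPM in YEJH-M3, 129 to 142 CPM in the fat-pad lines and 94.0 CPM in the parental YEJH line.

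**Figure D4:**
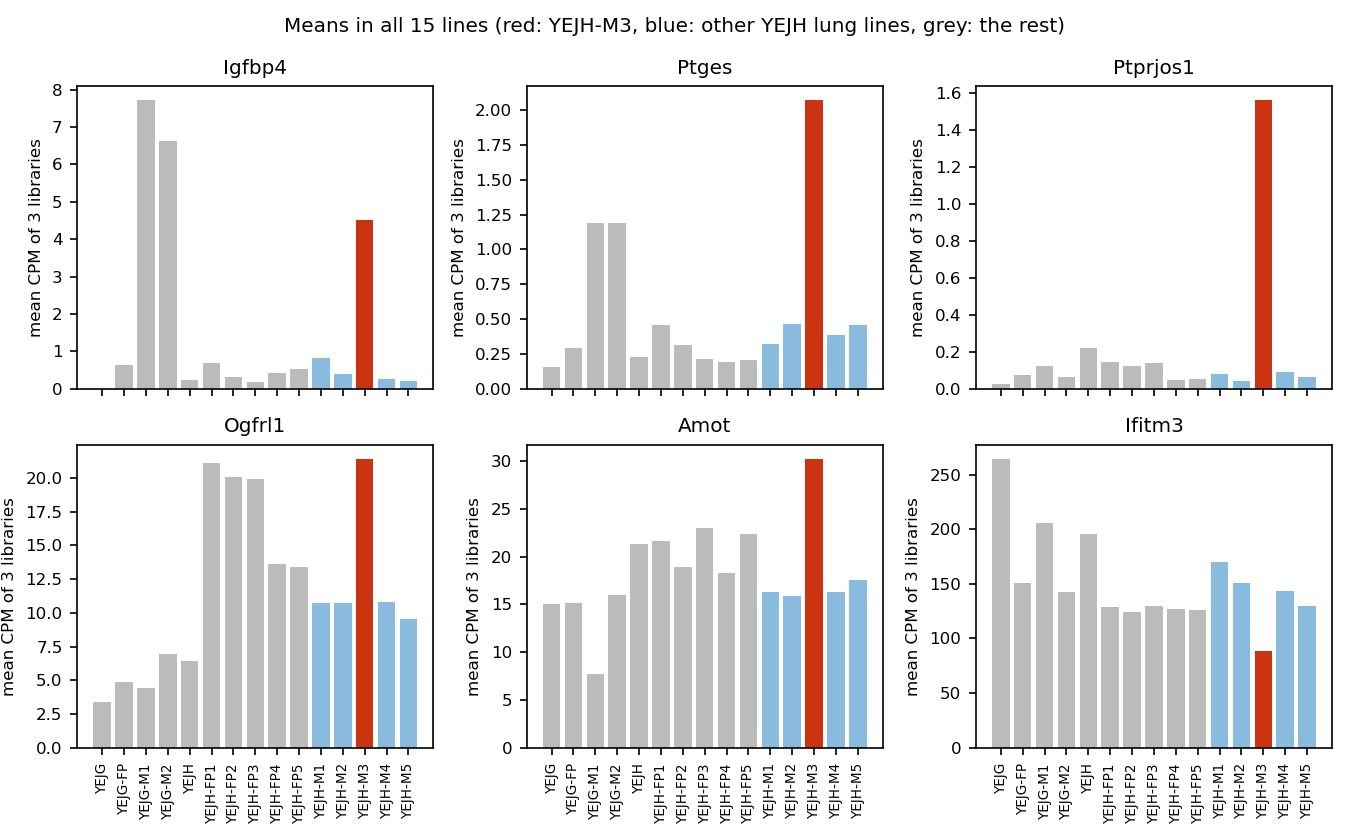
Mean CPM of 3 libraries in all 15 lines of the series for 4 of the genes that held and for Amot and Ifitm3, on linear axes from 0, with YEJH-M3 in red and the other YEJH lung lines in blue. YEJH-M3 is highest for Ptges, Ptprjos1 and Amot and lowest for Ifitm3, while Igfbp4 is higher in YEJG-M1 and YEJG-M2, and Ogfrl1 at 21.1 CPM in YEJH-FP1 is close to the 21.4 CPM of YEJH-M3.

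The 20 lists of genes from pathways and cell states known in mammary tumours and metastasis were read in the same fit. Of their 596 genes tested, Igfbp4 was the only 1 called by edgeR (0.147% of all genes were called), 94 others had an unadjusted p below 0.05, and DESeq2 called 8 with Igfbp4 and limma 1. The 8 DESeq2 calls were Igfbp4, Col17a1, Fn1, Prom1, Usp18, Cx3cl1, Car12 and Notum, and of these Igfbp4 and Col17a1 held without repeat 2. The lists are described here by their counts and medians, beside a median of 0.00319 and 50.9% positive differences over all genes tested. Of all genes 13.2% had an unadjusted p below 0.05, 8.63% higher and 4.60% lower, and 4.54% had one without repeat 2.

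Glycolysis and hypoxia response genes came first by share of positive differences among the 19 lists with more than 1 gene tested. Of 36 tested, 80.6% were positive, with a median log2 difference of 0.10 (0.12 without repeat 2), and none was called by edgeR, although 7 had an unadjusted p below 0.05 (7 also without repeat 2), all higher with all libraries. These 7 were Car12, Egln3, Slc2a1, Bnip3, Pfkl, Pfkfb4 and Kdm3a. Car12, a membrane carbonic anhydrase, had means of 33.9 and 20.6 CPM in YEJH-M3 and the others and a log2 difference of 0.72 ± 0.15 (SE, edgeR adjusted p = 0.0922). DESeq2 called it with all libraries and not without repeat 2 (DESeq2 adjusted p = 0.00653 and 0.374). Slc2a1, the glucose transporter GLUT1, had means of 137 and 105 CPM, and Pfkl, the liver-type phosphofructokinase, 297 and 244 CPM.

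Luminal epithelial genes had 33 members tested, with a median of 0.10 (0.06 without repeat 2) and 7 at an unadjusted p below 0.05 (5 without repeat 2). The 7 were all higher, namely Prom1, Cdh1, Elf3, Krt19, Tjp3, Prlr and Cldn7. Cdh1, which encodes E-cadherin, had means of 458 and 371 CPM and its 3 YEJH-M3 libraries lay above the 12 others, with a log2 difference of 0.28 that was 0.17 without repeat 2 (edgeR adjusted p = 0.218 with all libraries). Among growth factor receptors and ligands 36 genes were tested, 7 had an unadjusted p below 0.05, all higher, and the median was 0.06. Without repeat 2 these were 3 genes and a median of 0.0066. The 7 with all libraries were Igfbp4, Fgf13, Met, Egfr, Nrg2, Spred2 and Igf1r. Spred2, an inhibitor of Ras signalling, and Igf1r, the IGF-1 receptor, had log2 differences of 0.69 and 0.42 with all libraries and of -0.0065 and 0.0024 without repeat 2.

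Matrix genes went both ways, with 7 of 32 higher and 6 lower at an unadjusted p below 0.05, and 6 in all without repeat 2. Fn1, encoding fibronectin, had means of 1172 and 626 CPM, and its log2 difference of 0.88 became 0.38 without repeat 2. Col17a1, a hemidesmosome collagen, had means of 2.02 and 4.05 CPM and a log2 difference of -1.03, which was -1.16 without repeat 2. DESeq2 called Col17a1 in both fits (DESeq2 adjusted p = 0.00659 and 0.0284) and edgeR did not (edgeR adjusted p = 0.0922). The basement membrane collagens Col4a1 and Col4a2 had log2 differences of 0.40 and 0.41. Loxl4, a lysyl oxidase that cross-links collagen, had means of 0.404 and 22.6 CPM, with a log2 difference of -5.70 ± 2.49 (SE) that was not called (edgeR adjusted p = 0.341). Against single lines edgeR called Loxl4 lower in YEJH-M3 than in 3 lines and higher than in 1, so YEJH-M3 was not the lowest. Glutathione and NRF2 target genes were positive in 25.6% of 43 tested, with a median of -0.10 that was -0.03 without repeat 2. Genes of mitosis and DNA replication were positive in 30% of 40, with a median of -0.04.

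In the remaining lists 0 genes were called by edgeR, and at an unadjusted p below 0.05 each had at most 5 genes in either direction. The counts higher and lower were 3 and 2 of 23 basal and mesenchymal genes, 2 and 3 of 36 matrix proteases and inhibitors, and 0 and 0 of 14 integrins. They were 4 and 3 of 36 TGF-beta, activin and BMP genes, 3 and 2 of 36 cell cycle brakes and p53 targets, and 2 and 0 of 36 cholesterol and fatty acid synthesis genes. They were 3 and 0 of 19 imprinted genes and 5 and 1 of 40 stress response genes, and the medians of these 8 lists lay between -0.03 and 0.06. Without repeat 2 they lay between -0.09 and 0.07, where those of the integrins (-0.09), the TGF-beta list (-0.06), the basal and mesenchymal genes and the imprinted genes turned negative and that of the stress response genes turned positive (0.07). Of 18 Notch pathway genes 4 and 1 had such a p, and Jag2, a Notch ligand, had means of 85.4 and 38.5 CPM and a log2 difference of 1.23 ± 0.42 (SE, edgeR adjusted p = 0.253). Of 29 Wnt pathway genes 5 and 3 had one, and Notum, a secreted enzyme that inactivates Wnt proteins, had means of 31.4 and 54.0 CPM and a log2 difference of -0.81 (edgeR adjusted p = 0.213). Chemokine and cytokine genes were positive in 36.4% of 33 tested, 2 and 5 had such a p, and Cx3cl1 had means of 5.21 and 9.28 CPM and a log2 difference of -0.87. In the list of 39 antigen presentation and interferon genes, with 3 and 3, Usp18, which removes ISG15, had means of 5.49 and 3.20 CPM (edgeR adjusted p = 0.186). Tap2, a peptide transporter of antigen presentation, had means of 17.9 and 23.1 CPM (edgeR adjusted p = 0.237). Of 39 Hox cluster genes, 1 had enough reads to be tested.

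Upp1, which encodes the uridine phosphorylase that releases uracil and is the gene the study was about, measured 30.7, 30.3 and 31.1 CPM in YEJH-M3 and 25.3 to 43.1 CPM in the other lung libraries. YEJH-M3 lay inside their range. The log2 difference was -0.21 ± 0.16 (SE) and was not called (edgeR adjusted p = 0.606). Against single lines Upp1 was called lower than in YEJH-M2 only (log2 difference of -0.43, edgeR adjusted p = 0.016). Without repeat 2 that difference was -0.42 (edgeR adjusted p = 0.017). With all libraries of the series scaled together YEJH-M3 had 30.9 CPM, the YEJH fat-pad lines 31.5 to 35.1 CPM and the parental YEJH line 26.1 CPM. Of 33 genes of pyrimidine and uridine metabolism tested, edgeR called 0, and 1, Samhd1, had an unadjusted p below 0.05, with a log2 difference of 0.34 that was 0.11 without repeat 2.

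The label of mammary tumour cells was checked against marker genes. All 12 markers of mammary tumour epithelium passed the filter and, as CPM of the library totals without TMM factors, summed to 7700 to 10600 CPM in YEJH-M3 and 8520 to 12300 CPM in the other lines. Endothelial, adipocyte and erythroid markers summed to at most 1.06 CPM in any library. In such bulk cultures fewer cells of a type and less RNA per cell cannot be told apart. The fibroblast markers summed to 4.67 to 5.44 CPM in YEJH-M3 and 2.39 to 6.47 CPM elsewhere. Among leukocyte markers Cd3e, Ms4a1, Itgam and Lyz2 had no read in the 15 libraries, while Csf1r, S100a8 and Cd68 had 716, 581 and 391 reads over the 15 libraries. Of 10 lung epithelium markers 6 had no read, namely Sftpc, Sftpb, Sftpa1, Scgb1a1, Scgb3a2 and Nkx2-1.

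The summed lung epithelium markers were nevertheless 37.6 to 70.7 CPM in YEJH-M3 and 16.9 to 44.7 CPM elsewhere, and on that scale Foxj1 alone gave 37.1 to 69.8 and 15.3 to 44.4 CPM. With TMM factors, as elsewhere, Foxj1, the transcription factor of motile cilia, measured 69.5, 40.6 and 48.6 CPM in YEJH-M3. In the other lines it ran from 14.9 to 43.0 CPM, with YEJH-M5 at 34.2 to 43.0 CPM, so the groups overlapped through that line and YEJH-M3 repeat 2. Without Foxj1 the remaining markers summed to at most 1.53 CPM. The log2 difference was 1.16 ± 0.28 (SE, edgeR adjusted p = 0.163), and 1.3 without repeat 2.

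The differences were also read by chromosome, as medians over the genes tested and with no test. On chromosome 15 the median of 537 genes was -0.17, with 22% of genes higher in YEJH-M3, against 50.9% of all genes. Without repeat 2 it was -0.19 with 12.7% of genes higher. Its values in the 3 YEJH-M3 libraries, each against the others of its run, were -0.16, -0.18 and -0.17. No gene of chromosome 15 was called by edgeR or limma, although 133 had an unadjusted p below 0.05 and DESeq2 called 3.

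The chromosome 15 medians against single lines were -0.23 for YEJH-M1, -0.29 for YEJH-M2 and -0.19 for YEJH-M4, but 0.09 for YEJH-M5. The sign against YEJH-M5 was thus opposite to that against the other 3 lines. In the 15 libraries, 12 stretches of 10 or more tested genes in a row on this chromosome were all negative. The longest held 31 genes, from Cyc1 to Rbfox2. A stretch of 11 genes from Ccn4 to Khdrbs3 was all positive, with a median of 0.21. Without repeat 2 no such positive stretch was found on this chromosome, and the longest negative stretch held 39 genes, from Txn2 to Dnal4. Over all chromosomes there were 25 negative and 27 positive stretches in the 15 libraries, and 40 and 26 without repeat 2. Myc, the growth-promoting transcription factor gene on this chromosome, had means of 131 and 105 CPM and a log2 difference of 0.31 (0.16 without repeat 2, edgeR adjusted p = 0.218 with all libraries).

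On chromosome 10 the median of 616 genes was 0.08, with 71.8% of genes higher in YEJH-M3, and 0.07 with 70.3% higher without repeat 2. With libraries scaled to their totals it was 0.0256, and with summed lines and no run term 0.0512. It was positive against each line, at 0.08 for YEJH-M1, 0.07 for YEJH-M2, 0.10 for YEJH-M4 and 0.12 for YEJH-M5, and in each YEJH-M3 library, at 0.08, 0.08 and 0.09. Esyt1 and Akap12 lie on this chromosome, with differences of 0.44 and 0.60 that exceeded its median. Chromosome 4 had a median of 0.08, but it was 0.30 against YEJH-M1, and against the other 3 lines it ran from -0.01 to 0.03. It was 0.023 with libraries scaled to their totals, 0.0441 with summed lines and 0.0368 in run A. DNA copy number was not measured, and its part in these medians was not tested.

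**Figure D5:**
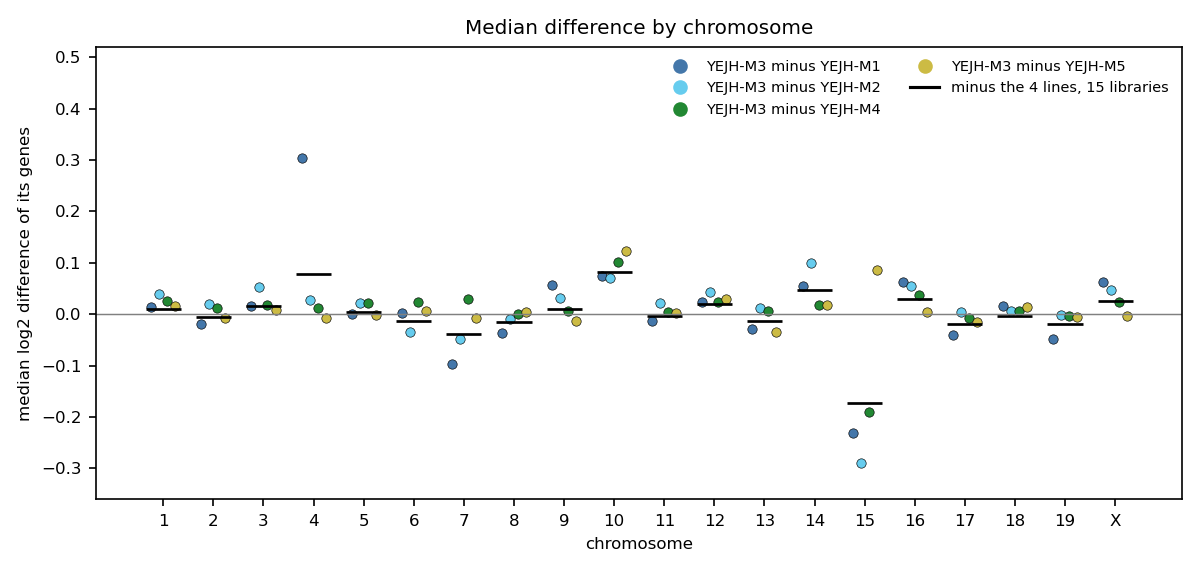
Median log2 difference of the genes tested on each chromosome, YEJH-M3 minus each other lung line (coloured points) and minus the 4 lines together (black bars). Chromosome 15 lies below 0 against 3 lines and above 0 against YEJH-M5, chromosome 10 lies above 0 against all 4, and chromosome 4 stands out against YEJH-M1 alone.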

How the data were processed

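Polyadenylated RNA of 15 PyMT+ cell lines was sequenced in 3 technical repeats each on a NextSeq500 from TruSeq v2 libraries, which do not mark strand. The authors deposited raw read counts per gene, made per the labels with FastQC, HISAT2, SAMtools 1.2 and HTSeq, and each value is a whole number of reads with no normalisation. The notes name build GRCh38, but the gene IDs are mouse Ensembl IDs, so the build used is uncertain. Symbols and positions were taken by ID from a GRCm39 annotation (50764 of 54838 IDs, 92.6%). The 5 HTSeq summary rows were kept out of tests. Total reads on genes ranged from 9723860 to 16922450 among the 15 YEJH lung libraries, and low counts limit the precision of genes below about 2 CPM.

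Counts were fitted in R 4.3.3 with edgeR 4.0.16 (TMM factors, filterByExpr, glmQLFit, glmQLFTest) with library run and YEJH-M3 as terms, and p-values were adjusted by Benjamini-Hochberg over all genes tested. The SE of a log2 difference is its size divided by the square root of F. A second fit had 1 coefficient per line plus run. DESeq2 1.42.0 and limma 3.58.1 (voom, correlation within lines) were alternatives. Others were other scalings, filters, summed lines with no run term, a replicate block and left-out libraries, lines and runs. The fit was also run on simulated counts with known changes. These were drawn as independent libraries with no line or run effect, so they cannot show how the fit handles either. Plots used Python 3.11.15 and matplotlib 3.10.9.

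Repeat numbers were taken as pairing the libraries in the block. Deviations from line and run correlated across genes at 0.264, 0.194 and 0.394 for repeats 1, 2 and 3. With run not removed these correlations were 0.226, -0.463 and -0.672, and the repeats are spread unevenly over the runs. No value for libraries of unlike repeat number is set beside them, so they do not show that repeat numbers pair libraries. Groups followed the cell line labels. A library labelled YEJG-M1 carries a library name with YEJH_M1 and was kept as labelled. By rule, named genes had to hold without YEJH-M3 repeat 2, not overlap between groups, average at least 2 CPM and not be predicted genes. The rule allowed up to 15 in each direction and 2 for each list, with Upp1 always given. Ogfrl1, Cndp2 and Esyt1 met it, and the other genes were named after their values had been seen. The comparison, gene lists and markers were chosen with earlier results of these data known.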

Additional observations from a re-analysis of the deposited data

Results flagged for a closer look

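The share of reads outside genes in YEJH-M3 repeat 2, 13.3%, was above the range of the other 14 libraries and lies outside the counts that the comparison used.

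Among the means of the 4 other lung lines, the line farthest from the rest was examined in 30 genes with Dixon's ratio, the gap to the nearest line divided by the whole range, against its 95% critical value for 4 values. It was passed in 3 genes, and chance alone gives about 1 in 20. Hhip was low in YEJH-M4 (ratio 0.874), with a mean of 1.44 CPM against 2.90 to 3.11 CPM in the other 3 lines. Ogfrl1 was low in YEJH-M5 (ratio 0.922), at 9.41 CPM against 10.6 to 10.7 CPM. Esyt1 was high in YEJH-M4 (ratio 0.909), at 130 CPM against 119 to 120 CPM. In all 3 genes the YEJH-M3 mean lay above the 4 others.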

How the results depend on the processing

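With the main settings 20 genes were called, 12 higher and 8 lower in YEJH-M3, and 6 held without repeat 2. DESeq2 gave 95, 53, 42 and 26 in that order, a fit with 1 coefficient per line 635, 355, 280 and 365, no filter on low counts 35, 22, 13 and 10, and a stricter filter (at least 5 CPM in 3 libraries) 9, 5, 4 and 3. Counts summed per line gave 5, 5, 0 and 0, and without repeat 2 that fit called 0 genes (288 at an unadjusted p below 0.05). limma called 14, with 1 lower and 3 that held. An adjusted p below 0.01 left 9, with 1 lower, and left 13 of the 27 genes that differed from all 4 lines. Run A alone gave 0, 0 and 0, and run B alone 1, 1 and 0, with 0 that held in run B, while in run A repeat 2 is not present. With YEJH-M5 left out the counts were 260, 83, 177 and 93. With YEJH-M1 left out 12 held, and 4 and 3 genes were lower with YEJH-M2 or YEJH-M4 left out. RLE factors, scaling to the total and no run term gave 18 to 23 calls.

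The replicate block, with the repeat numbers as pairing, gave 9 calls, 1 of them lower, with 6 that held, and it changed no call on the 6 genes. Leaving out 1 library at a time gave 6 to 464 calls, 6 to 415 higher, 0 to 49 lower and 0 to 8 that held. The lowest 3 counts of calls and directions came without YEJH-M3 repeat 2 and the highest without YEJH-M3 repeat 1. Without YEJH-M3 repeat 1 or 3, the count that held rests on 1 YEJH-M3 library, as repeat 2 is also left out. Calls fell below 14 without YEJH-M1 repeat 2 or 3 (12 and 13), YEJH-M2 repeat 1, 2 or 3 (10, 12 and 9), YEJH-M4 repeat 2 (13) and YEJH-M5 repeat 2 (13). The genes that differed from all 4 lines numbered 16 without YEJH-M5 repeat 3, 44 without YEJH-M3 repeat 3 and 145 without YEJH-M3 repeat 1. The causes of these changes were not tested.

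No value of the named genes reversed in 923 recomputations, which for the 20 called genes largely follows from the lack of overlap. For the 20 genes 390 of 615 kept the call, and the 6 that held lost it under counts summed per line, run A alone and run B alone, while Igfbp4, Ptges and Ptprjos1 did not pass the stricter filter. Low reads limit Igfbp4, Ptges, Ptprjos1, Ltc4s and Csta1.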
